A study of Mus musculus with 2 samples.

Results

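The cluster bAPC 2 is a group of cultured precursors of the brown fat lineage that the study names early preadipocytes. Its members were taken from the barcode and cluster table that the study published with its source data, where they carry the name Early Preads B2, and their counts from the deposited matrix of the brown library. The table was read only in part, in alphabetical order of barcode, and as read labels 1999 brown precursor cells, which are 32.6% of the 6137 brown barcodes that passed the study's limits. Up to the last of them, 2056 barcodes passed, and the other 57 were named as glial, myeloid or myoblast cells. Every level and share below is over these labelled cells, of which 415 were in bAPC 2, or 20.8% (95% Clopper-Pearson interval 19.0 to 22.6). The other 1584 labelled cells were 581 of bAPC 1, 171 of bAPC 3, 142 of bAPC 4, 115 of bAPC 5, 296 brown committed adipocyte precursors (bCAPs) and 279 brown fibroadipogenic-like cells (bFAPLs).

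The study compared the progenitors of white and brown fat in culture by single-cell RNA sequencing with the 10x Genomics 3′ v3.1 chemistry. C57BL6/J newborns of both sexes, at postnatal day 0 by the sample labels and a day older by the study's methods, gave the interscapular brown and the subcutaneous white depot, and the tissues of several pups were pooled. Adherent cells of the stromal vascular fraction were grown to confluency in 4 days, lifted with trypsin and loaded, so they are cultured cells and not cells fresh from tissue. There was 1 library per depot, no treatment and no genotype, and therefore no replicate, no test and no p-value. All intervals are at 95% and cover counting error only.

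Brown adipocytes burn lipid to make heat and arise from mesenchymal precursors that carry receptors of platelet-derived growth factor, the products of Pdgfra and Pdgfrb, and the preadipocyte protein Dlk1. Commitment is driven by Pparg and the C/EBP factors together with early regulators such as Ebf2 and Zfp423, while fibroadipogenic cells make matrix instead. A transcript begins as a long nuclear precursor, and introns make up most of a long gene, so that reads inside introns and from nuclear noncoding RNAs such as Malat1 report RNA in the nucleus. Cell Ranger 7, which made these counts, includes intronic reads by default.

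The label could be checked on its marker only in part. Lrrc15, a leucine-rich repeat membrane protein known from matrix-producing fibroblasts, was measured at 20.8 CPM (unique molecular identifiers, UMIs, scaled to the same total in every cluster; 18.3 to 23.6) in bAPC 2. It stood at 26.4 CPM (21.9 to 31.5) in bAPC 4, 24.7 (22.5 to 27.2) in bAPC 1, 18.5 (14.7 to 23.0) in bAPC 3, 10.2 (7.04 to 14.4) in bAPC 5, 3.29 (2.17 to 4.79) in bCAPs and 1.46 (0.728 to 2.61) in bFAPLs. The cluster thus ranked as the third of 7 for its own marker, and its interval overlapped those of bAPC 1, bAPC 3 and bAPC 4, its neighbours in that order. At least 1 UMI of Lrrc15 was found in 34.7% of bAPC 2 cells (30.1 to 39.5), against 45.1% of bAPC 4 and 37.5% of bAPC 1 cells. In 22 glial cells of the same library the share was 4.55% (0.115 to 22.8) and in 27 myeloid cells 0% (up to 12.8), at medians of 17174.5 and 29269 UMIs per cell. Against all other labelled brown precursors the log2 ratio of Lrrc15 was 0.42 (0.21 to 0.63), and against bAPC 1 alone it was -0.25 (-0.48 to -0.02). Lrrc15 separated the early preadipocytes from bCAPs and bFAPLs and did not single out bAPC 2, which is therefore called by its number here. Of a list of 22 genes of LRRC15-type myofibroblasts, 21 were measured, 0 were at least 1.5-fold higher and 4 were at least 1.5-fold lower in bAPC 2, or 19.0% where 13.8% of all genes tested were lower and 0.193% higher. Its median log2 ratio was -0.05 and turned to 0.09 when centred on the median of all genes.

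The cells were precursors by the other markers fixed for them. Dlk1 was at 410 CPM in bAPC 2, below bAPC 5 (1021) and bAPC 1 (517) and above bCAPs (136) and bFAPLs (144). Pdgfra was at 62.1 CPM and Pdgfrb at 136 CPM, log2 ratios of -0.51 (-0.62 to -0.39) and -0.14 (-0.22 to -0.06). Pparg stood at 47.6 CPM, between bAPC 5 (12.4) and bCAPs (92.8), and its lipid-binding target Fabp4 at 132 CPM against 302 CPM in bCAPs. Of the markers of other cell types, 4 lists had no member at 10 CPM. The 7 endothelial markers summed to 5.21 CPM, led by Tek at 3.31 CPM, the 7 myeloid to 10.8 CPM, led by Lyz2 at 5.21 CPM, the 7 myogenic to 1.82 CPM, led by Myog at 0.827 CPM, and the 6 erythroid to 0.0827 CPM, all of it from Alas2. Glial and mural lists had members above that level. The 7 glial markers summed to 15.6 CPM, of which S100b gave 12.4 CPM, against 25.7 CPM in bFAPLs. At 0 UMIs in bAPC 2 were 1 endothelial, 1 myeloid, 1 mural, 2 myogenic and 5 erythroid markers. The 7 mural markers summed to 62.2 CPM, led by Notch3 at 23.4 CPM, and were 254 CPM in bFAPLs.

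In depth bAPC 2 resembled the rest. Its cells held a median of 26194 UMIs, with 23668 to 31156 in the 6 other clusters, and 2.92% of UMIs from mitochondrial genes against 2.98% in all others. It was poorer in different genes. After each cell was thinned to 10000 UMIs, which removed no labelled cell, bAPC 2 cells showed a median of 3299 genes, below every other brown cluster (3471 to 3539). Without thinning the medians were 5480 and 5845.5 genes. By the cell cycle lists of Seurat, 67.5% of bAPC 2 cells were called G1 (62.7 to 72.0), 19.3% S and 13.3% G2/M, against 64.3%, 16.5% and 19.2% of the other cells. Cells with Xist and no Y-linked RNA made up 89.7% (86.3 to 92.5) of those bAPC 2 cells that could be called for sex, and 84.9% (83.0 to 86.7) of the others. Both kinds were found in 3.37% of bAPC 2 cells (1.86 to 5.60) and in 2.40% of the others (1.703 to 3.28), and no doublet calling was applied. The brown and white libraries shared 9 cell barcodes, 1 of them in bAPC 2.

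Over the 8790 genes at 10 CPM or more, bAPC 2 differed from the other labelled brown cells almost wholly by lower values. Since these genes served to define the cluster, the following values describe it and test nothing. At least 1.5-fold higher were 17 genes (0.193% of those tested) and at least 1.5-fold lower 1213 genes (13.8%). No gene was 2-fold higher, while 186 were 2-fold lower. The other clusters were more even, from 117 higher and 464 lower in bAPC 3 to 305 higher and 220 lower in bCAPs. The median log2 ratio of all genes was -0.14 in bAPC 2, so that a typical gene was already lower. Centred on that median, 71 genes (0.808%) were higher and 668 (7.6%) lower, and the share of higher calls among all calls moved from 1.38% to 9.61%. Of the 1213 lower genes, 971 had their lowest level of the 7 clusters in bAPC 2.

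Ccl2 and Ccl7, monocyte-attracting chemokines that lie side by side at chr11:82035571-82037453 and chr11:82045712-82047525 (GRCm38, plus strand), led the genes at 50 CPM or more. Ccl2 reached 277 CPM (268 to 286) in bAPC 2, 206 CPM in bAPC 3 and in bAPC 4, 197 in bAPC 1, 141 in bAPC 5, 136 in bFAPLs and 80.9 in bCAPs. Ccl7 reached 221 CPM in bAPC 2, with 175 in bAPC 4 and 155 in bAPC 1 next in order. Their log2 ratios over all other cells were 0.76 (0.70 to 0.81) and 0.73 (0.66 to 0.79). Neither interval of bAPC 2 met that of another brown cluster. In bAPC 2, 55.9% of cells held a Ccl2 UMI, close to the 55.6% of bAPC 1 and above the 31.8% of the 22 glial cells, and the 42 cells with most Ccl2 held 69.1% of its UMIs. Ccl7 was spread more widely, with a UMI in 70.6% of bAPC 2 cells and 49.3% of its UMIs in the 42 highest cells. In the other cells the highest 158 held 74.7% of Ccl2 and 57.1% of Ccl7. Across the 415 cells Ccl2 and Ccl7 had a Spearman correlation of 0.64, and across the 1584 others 0.53, pairs of values that share each cell's depth. The list of chemokines and cytokines went both ways. Of 9 measured, 5 had a ratio above 0 (36.2% of all genes did) and 4 below. As higher were counted 2 (22.2%, against 0.193% of all genes), and Cxcl14 was lower (-0.98, -1.35 to -0.64), or 11.1% against 13.8% of all genes. The median was 0.06. It turned to -0.11 when centred within groups of genes of like span and to -0.55 in male cells. At 50 CPM or more it was 0.39, and without bFAPLs 0.30. Cxcl12, the ligand of Cxcr4, was at 129 CPM with a ratio of -0.46 (-0.53 to -0.38).

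**Figure D1:**
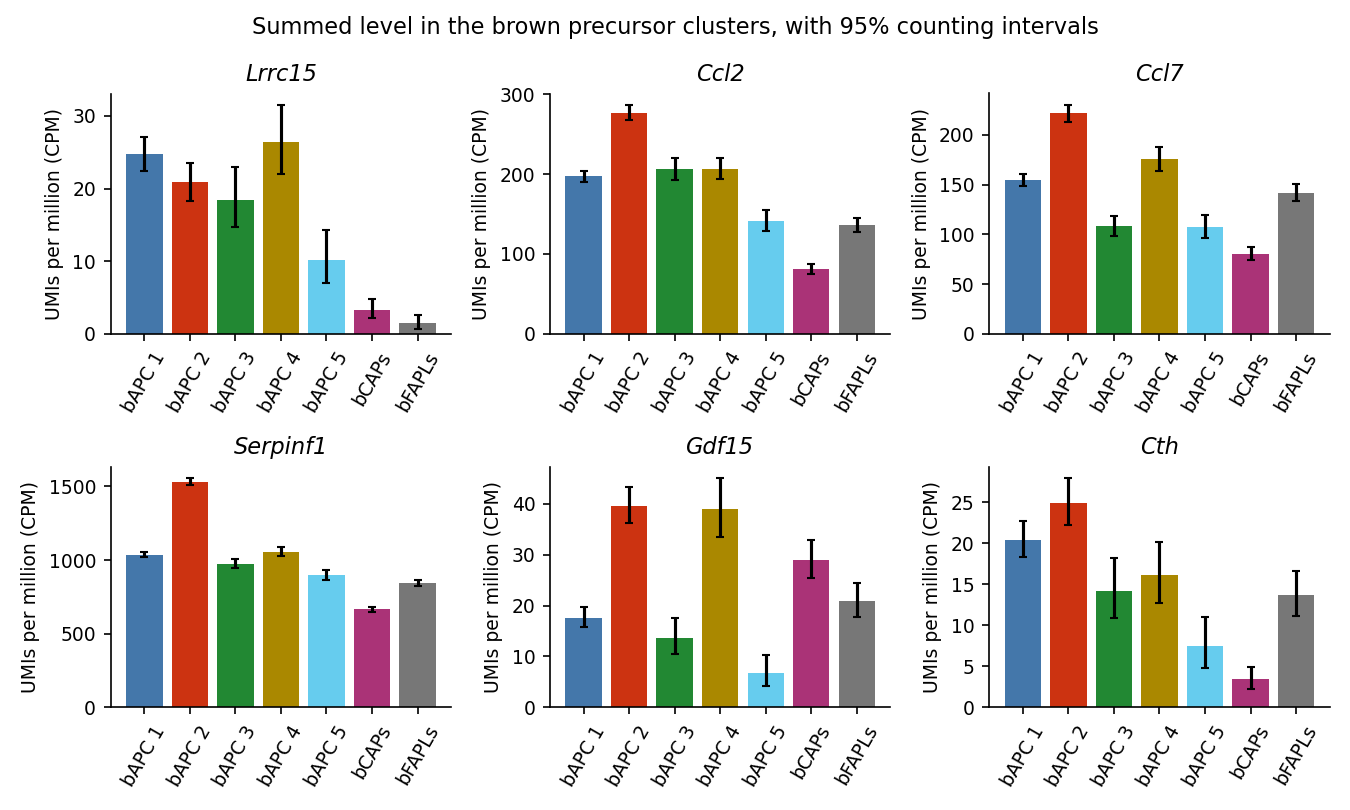
Summed level in CPM (vertical axis from 0) of 6 genes in the 7 brown precursor clusters, with bars for the level and error bars for the exact 95% Poisson interval, which covers counting error only. Lrrc15 in bAPC 2 (20.8 CPM) lies within the range of the other early preadipocytes, Ccl2, Ccl7 and Serpinf1 are highest in bAPC 2, and Gdf15 and Cth have intervals there that meet those of bAPC 4 and bAPC 1.

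Serpinf1, which encodes the secreted anti-angiogenic protein PEDF, was the most abundant of the 15 highest genes at 50 CPM or more. It stood at 1532 CPM (1510 to 1554) in bAPC 2 against 667 to 1057 CPM in the other 6 clusters, and every bAPC 2 cell held a UMI of it. Its log2 ratio was 0.73 (0.70 to 0.75). Timp1, an inhibitor of matrix metalloproteinases, was at 483 CPM, with 448 CPM in bFAPLs and 263 to 355 CPM elsewhere. Ass1, the argininosuccinate synthase of arginine synthesis, was at 89.0 CPM (ratio 0.63, 0.53 to 0.73). Hmox1, which degrades heme, was at 74.7 CPM and just under the limit with a ratio of 0.58 (0.47 to 0.70), while Ier3 was just past it at 0.59 (0.49 to 0.69). Tnfrsf12a, the receptor of TWEAK, and Gpx3, a secreted glutathione peroxidase, followed at 0.55 and 0.50, but Tnfrsf12a was higher in bAPC 4 (146 against 113 CPM) and Gpx3 in bAPC 5 (210 against 165 CPM). Of the 15 highest genes at 50 CPM or more, 11 had their highest level of the 7 clusters in bAPC 2, and all 15 were above 0 against bAPC 1 and against bFAPLs taken singly.

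The lists for stress and supply pathways were shifted by small amounts. ATF4 is the transcription factor of the integrated stress response and switches on amino acid synthesis and transport. Of 35 genes of its list, 30 were measured and 26 had a ratio above 0 (36.2% of all genes did). At least 1.5-fold higher were 2 (6.67%, against 0.193% of all genes) and 0 were lower (against 13.8%). The median was 0.26 where all genes had -0.14. Gdf15, a stress-induced hormone, was at 39.6 CPM (36.1 to 43.3) in bAPC 2 and at 38.8 CPM (33.4 to 44.9) in bAPC 4, and between 6.81 and 28.9 CPM elsewhere. Cth, which makes cysteine from cystathionine, was at 24.9 CPM (22.2 to 27.9), 20.4 CPM (18.4 to 22.6) in bAPC 1 and 3.41 to 16.1 CPM elsewhere. Their ratios were 0.90 (0.74 to 1.06) and 0.80 (0.60 to 1.00), the former the highest of all genes tested. Trib3 (0.45), Cebpb (0.42), Eif4ebp1 (0.40), Asns (0.32), Ddit3 (0.30) and Atf4 itself (0.29) stayed under the limit. Trib3 and Ddit3 differed little from bAPC 1 alone, with ratios of 0.09 (-0.05 to 0.23) and 0.04 (-0.05 to 0.12). The list of NRF2 targets, which defend against oxidants, had 36 of 39 genes measured and 0 past the limit either way (0.193% of all genes were higher and 13.8% lower). Above 0 were 25 (36.2% of all genes were), and the median was 0.12.

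Of the ATF4 list, 30 genes had a promoter in the RefSeq table of GRCm38.p6, which holds 250 bases before and 50 after each annotated start, and 10 of them (8 measured, median ratio 0.27) held the C/EBP-ATF element TGATGNAA on either strand. The 18 measured genes without it had a median of 0.19. The element was held by 4.51% of all 27025 genes listed there. The antioxidant element TGACNNNGC was in 11 of 32 promoters of the NRF2 list and in 14.0% of all genes, and the 11 genes that held it had a median ratio of -0.01 against 0.15 for the 19 measured without it. Gdf15 is shown because it had the highest ratio of all, at chr8:70632407-70632706 on the minus strand, written from 5′ to 3′. No letters are in capitals, since neither this window nor that of its second listed start held TGATGNAA.
Gdf15: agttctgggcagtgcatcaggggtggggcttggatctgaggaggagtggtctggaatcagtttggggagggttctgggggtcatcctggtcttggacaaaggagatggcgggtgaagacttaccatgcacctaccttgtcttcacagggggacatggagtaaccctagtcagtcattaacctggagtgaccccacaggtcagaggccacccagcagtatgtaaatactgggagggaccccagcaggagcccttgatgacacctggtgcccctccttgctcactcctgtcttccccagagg

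The machinery of protein synthesis and turnover, glycolysis and the actin cytoskeleton lay on the same side by similar amounts, with 0 members of these lists past 1.5-fold higher, where 0.193% of all genes were. The 16 measured genes of glycolysis had a median ratio of 0.27, led by Gapdh (0.45, 1328 against 922 to 1189 CPM in the other clusters) and Gpi1 (0.39). The 24 genes of the actin core, such as Cotl1 (0.48), Rhoc (0.43) and Actg1 (0.34), had a median of 0.25. Cytosolic ribosomal proteins had 0.23 (82 genes, 75 above 0, where 36.2% of all genes were) and took 24.8% of the UMIs of bAPC 2 against 21.4% of the others. Mitochondrial ribosomal proteins had 0.20 (78 genes), nuclear subunits of oxidative phosphorylation 0.18 (77 genes), the proteasome 0.17 (32 genes), ribosome biogenesis 0.16 (47 genes), aminoacyl-tRNA synthetases 0.13 (22 genes), and initiation factors 0.12 (50 genes, 2 lower). The 2 lower initiation factors were 4.0% of that list, against 13.8% of all genes. Most of these lists consist of short genes, with median spans of 3328.5 bases for cytosolic ribosomal proteins and 9139.5 bases for the actin core, and the ratios varied with span as given next.

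In the lists for matrix, growth factors and the cell cycle the share of lower genes stood on either side of the 13.8% of all genes. It was above it for basement membrane (30.8%), growth factors (28.6%), collagens (21.4%) and G2/M (18.0%), and below it for S phase (12.1%), smooth muscle (11.8%), matrix processing (8.11%), immediate early genes (6.25%) and p53 targets (5.88%). Of 14 collagens measured 3 were lower, Col11a1 (-1.15, -1.24 to -1.06), Col14a1 (-1.06) and Col8a1 (-0.66), and the median was -0.06. Col1a1, the most abundant of them in bAPC 2, stood at 4889 CPM. Of 37 matrix processing and secreted matrix genes 1 was higher, Serpinf1 (2.70%, against 0.193% of all genes), and 3 were lower, Timp3 (-0.72), Lum (-0.65) and Plod2 (-0.62). Mmp23, a membrane-released metalloproteinase, was at 206 CPM against 101 to 183 CPM in the other clusters. Of 13 basement membrane genes 4 were lower, Lama2, Col4a1, Col4a2 and Col4a5. Of 21 secreted growth factors 6 were lower and 0 higher, led by Bmp4 (-2.25, -2.78 to -1.76), an inducer of adipose commitment. Bmp4 was at 2.89 CPM in bAPC 2, 1.02 CPM in bAPC 1 and 43.6 CPM in bFAPLs, so that its ratio turned on the cells compared. Tgfb1, a driver of matrix production, had the highest ratio of that list (0.45, 0.31 to 0.58). The 50 measured G2/M genes had a median of -0.37 with 9 lower, among them Mki67 (-0.91, -1.03 to -0.79), and the 33 S phase genes -0.12 with 4 lower. Aurka, a mitotic kinase, was nevertheless at 25.2 CPM against 13.7 to 22.6 CPM in the other clusters. Among 16 immediate early genes Ier3 was higher (6.25%, against 0.193% of all genes) and Fosb lower (-0.82, -0.93 to -0.71). Of 17 p53 targets 1 was lower, Sesn1 (-0.91), while the cell cycle inhibitor Cdkn1a was at 235 CPM against 86.5 to 220 CPM (0.45, 0.39 to 0.52). Of 12 genes of depot and body position 0 were past the limit and the median was -0.09, with the brown lineage factor Zic1 at 25.3 CPM (-0.11, -0.30 to 0.07). The 17 smooth muscle genes had a median of 0.01, but 0.67 against bAPC 1 alone and -0.33 against bFAPLs alone, with Sorbs2 (-1.63) and Myh11 lower, and the 8 genes of Myc and polyamine synthesis -0.04 with 0 past the limit. Several of these medians turned with the scaling. Centred on the median of all genes, those of collagens (0.08), S phase (0.02), immediate early genes (0.03), p53 targets (0.07), depot and body position (0.05) and Myc (0.10) were above 0. Centred within span deciles, as described further on, collagens (0.27) and p53 targets (0.07) were above 0. So were basement membrane (0.07) and growth factors (0.00), whose medians before were -0.34 and -0.23.

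The lower genes were the long ones. Gene span, the distance from the first to the last annotated base, was taken from GENCODE vM21 for all 8790 genes and divided into deciles (10 equal groups) of 879 genes. In bAPC 2 the median log2 ratio was 0.17 (0.16 to 0.19, from order statistics) in the shortest decile, with a median span of 3182 bases, and fell without a break through 0.13, 0.08, 0.00, -0.07, -0.16, -0.25, -0.38 and -0.49 to -0.69 (-0.71 to -0.67) in the longest decile, with a median span of 233554 bases. In the longest decile 594 genes, or 67.6%, were at least 1.5-fold lower and 98.7% were below 0, against 10 genes, or 1.14%, that were lower in the shortest. Of all 1213 lower genes 1040 lay in the 3 longest deciles and 33 in the 3 shortest. No other brown cluster had this slope. From shortest to longest decile the median went from -0.12 to 0.30 in bAPC 1, from -0.13 to 0.09 in bAPC 4, from 0.00 to -0.14 in bAPC 3, and in bAPC 5, bCAPs and bFAPLs the ends differed by less than that. Each cluster was set against all other cells, so that the values of the clusters are not independent. Across genes the Spearman correlation of span and ratio was -0.72 in bAPC 2, 0.55 in bAPC 1 and -0.04 in bFAPLs. Exonic length gave -0.62 in bAPC 2. Within the longest decile of span, genes with the shorter exonic part had a median of -0.67 and those with the longer -0.71, and in the fifth decile the medians were -0.01 and -0.12. The 168 protein-coding genes with a single merged exon had a median of 0.06.

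**Figure D2:**
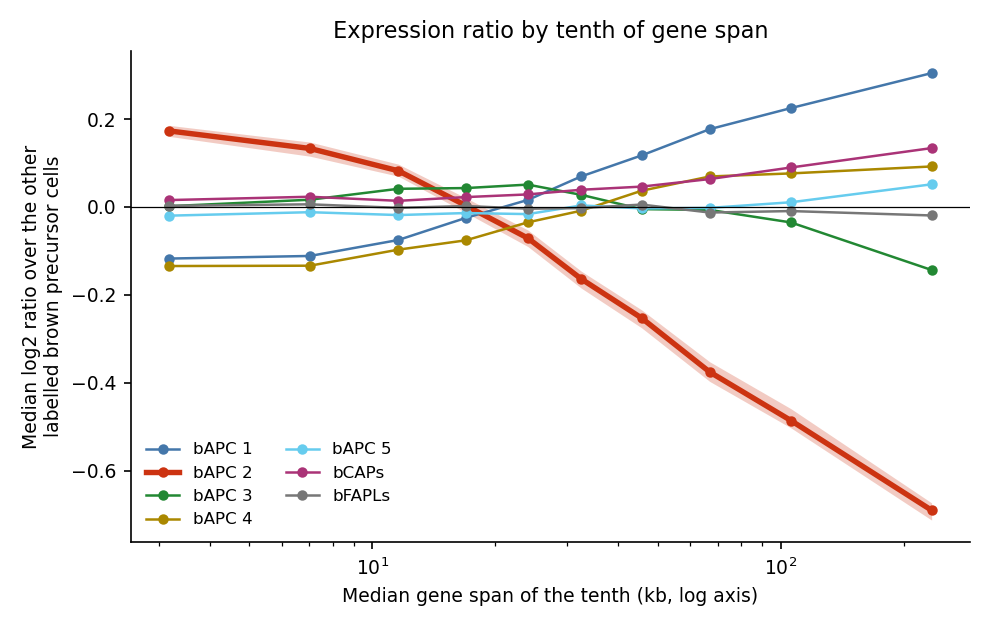
Median log2 ratio of each brown cluster over the other labelled brown precursor cells (vertical axis) in deciles of 879 genes ordered by gene span (horizontal axis, median span of the decile in kb, log axis), with a shaded 95% order-statistic interval for bAPC 2. The line of bAPC 2 goes from 0.17 to -0.69 while that of bAPC 1 goes from -0.12 to 0.30.

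Nuclear noncoding RNAs were low with them. All 12 RNAs of that list were measured, all 12 were below 0 (63.8% of all genes were) and 7 were at least 1.5-fold lower (58.3%, against 13.8% of all genes), with a median of -0.76. Together they made 0.525% of the UMIs of bAPC 2 (0.521 to 0.529), the same as in bAPC 3 (0.525%, 0.519 to 0.532) and less than in the other clusters (0.991 to 1.12%). Malat1, an unspliced nuclear RNA of only 6983 bases that is kept in nuclear speckles, stood at 3610 CPM in bAPC 2 and 3169 CPM in bAPC 3 but at 6762 to 8284 CPM in the 5 other clusters. Neat1, the scaffold of paraspeckles, was at 132 CPM with a ratio of -0.81 (-0.88 to -0.73), and the imprinted antisense RNA Kcnq1ot1 at 69.3 CPM with -0.98 (-1.09 to -0.88). Counting by strand was not checked here, so that reads of overlapping antisense genes may not be told apart. Meg3, also imprinted, was at 692 CPM with -0.42 (-0.45 to -0.39), though lower still in bAPC 3 (558 CPM). The mitochondrial RNA of lowest ratio was mt-Nd6, which unlike the other mitochondrial mRNAs is read from the light strand, at 13.2 CPM (11.3 to 15.4) against 29.2 to 35.1 CPM in the 6 other clusters. It was the 1 of 13 mitochondrially encoded mRNAs past the limit (7.69%, against 13.8% of all genes that were lower), and their median was -0.23.

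The pattern held cell by cell. The longest decile of genes took a median of 5.23% of the UMIs of a bAPC 2 cell, with 80% of cells between 3.76 and 6.62%, against 7.94% in the other cells. Of bAPC 2 cells 99.5% lay under that median of the others, and of the others 7.70% lay under the median of bAPC 2. These were 25.7% of bAPC 3 cells, 14.7% of bFAPLs, 11.3% of bAPC 5, 6.42% of bCAPs, 0.861% of bAPC 1 and 0% of bAPC 4. The median was 5.36% in G1, 5.25% in S and 4.45% in G2/M cells of bAPC 2, against 8.36, 7.46 and 7.18% in those of the other clusters. In female and in male cells of bAPC 2 it was 5.21% in both, against 7.91 and 8.35% of the others. For Malat1 the separation was less clean. Its median was 3191 CPM per cell in bAPC 2 and 6505 CPM in the others, 84.6% of bAPC 2 cells lay under the latter, and the 41 male cells of bAPC 2 had a median of 4671 CPM where the 356 female cells had 3131. Across the 415 cells of bAPC 2 Malat1 and the share of long genes had a Spearman correlation of 0.59, equal to that across the 1584 others (0.59), values that share each cell's total. Depth per cell correlated with the share of long genes at -0.22 in bAPC 2 and at 0.12 in the others, and the mitochondrial percentage at 0.14 and 0.06. How nuclear and cytoplasmic RNA were recovered from these cells was not tested.

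**Figure D3:**
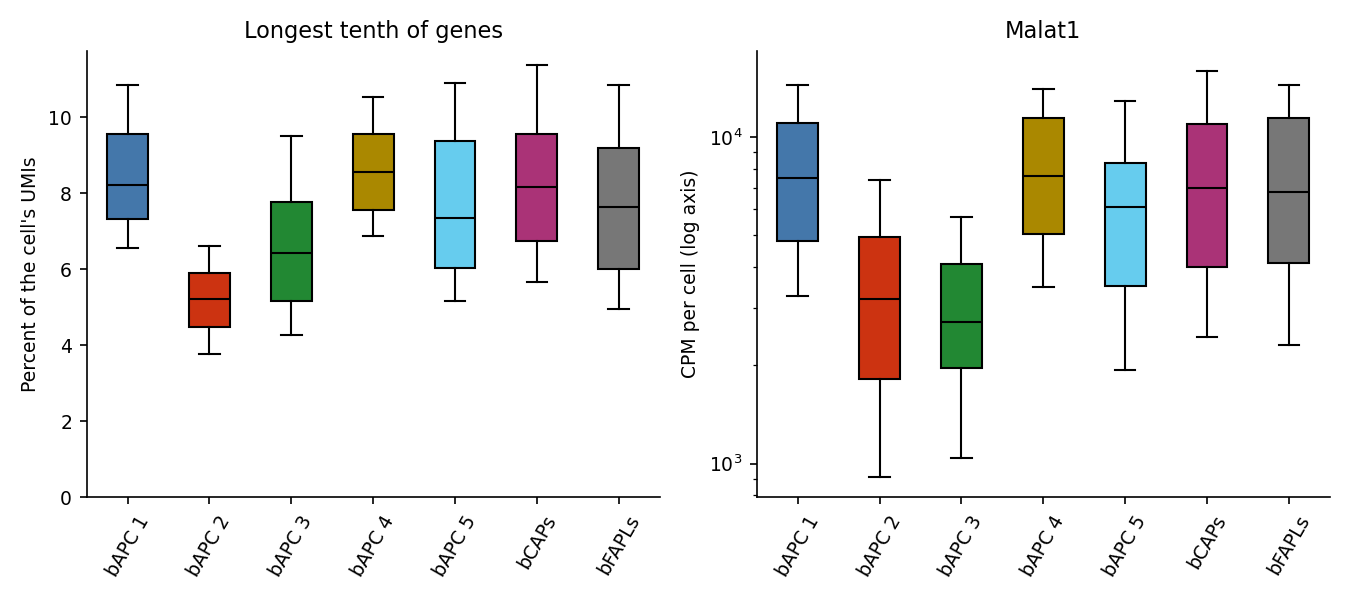
Per cell and brown cluster, the percentage of UMIs in the longest decile of genes (left, from 0) and the level of Malat1 in CPM (right, log axis), with boxes from the first to the third quartile, a line at the median and whiskers at the 10th and 90th percentile. The medians of bAPC 2 are 5.23% and 3191 CPM, and bAPC 3 is the cluster nearest to it in both.

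Among the named low genes at 50 CPM or more, 13 of 15 lay in the longest decile, and 11 of 15 had their lowest level of the 7 clusters in bAPC 2. Ror1, a receptor of Wnt5a spanning 348975 bases, was at 72.9 CPM (68.2 to 77.9) in bAPC 2, 133 to 261 CPM in 5 clusters and 499 CPM in bFAPLs, a ratio of -1.705 (-1.81 to -1.61). Pde3a and Pde7b, phosphodiesterases that degrade cyclic nucleotides, had ratios of -1.65 (-1.83 to -1.48) and -1.42 (-1.61 to -1.25), though Pde7b was lower still in bAPC 4 (20.6 against 23.0 CPM). Zfpm2, a cofactor of GATA proteins, was the most abundant of the 15, at 219 CPM in bAPC 2 and 270 to 535 CPM elsewhere. The lowest ratio belonged to a short gene. Hp, haptoglobin, spans 4045 bases and had -1.97 (-2.17 to -1.77), but this came from bCAPs at 308 CPM and bFAPLs at 54.7 CPM. In bAPC 2 it was at 18.6 CPM (16.3 to 21.2), above bAPC 1 at 14.1 CPM (12.4 to 15.9). Npr3, the clearance receptor of natriuretic peptides, was the other gene outside the longest decile (-1.33, -1.51 to -1.15).

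**Figure D4:**
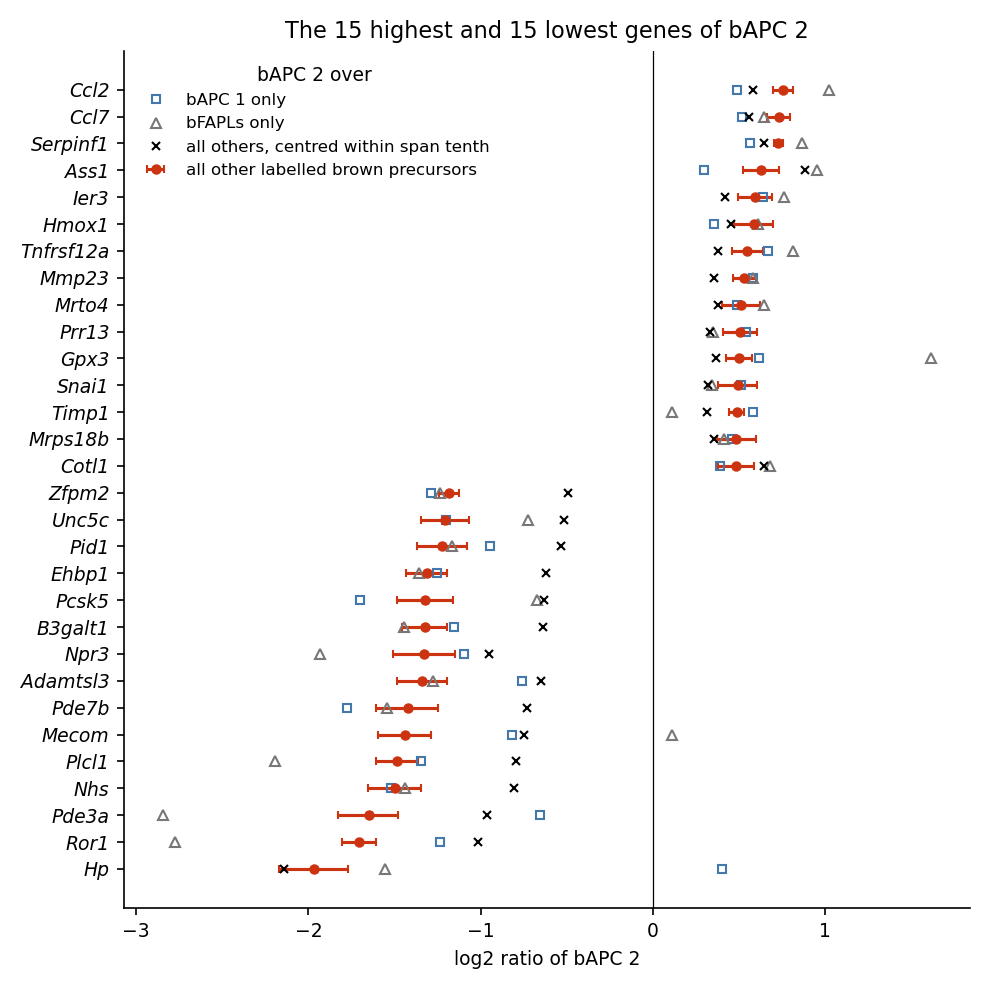
Log2 ratios of bAPC 2 for the 15 highest and 15 lowest genes at 50 CPM or more, over all other labelled brown precursor cells (filled circles with 95% conditional binomial intervals for counting error), over bAPC 1 alone (squares), over bFAPLs alone (triangles) and centred within the decile of gene span (crosses). The 15 highest genes lie above 0 in every reading, and the 15 lowest, other than Hp, move toward 0 when centred.

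To show what was left beyond span, the ratios were centred on the median of their own decile, a choice made after the slope was seen. Then 75 genes (0.853%) were at least 1.5-fold higher and 187 (2.13%) lower, so that 28.6% of calls were higher, with 151 of the 187 among the 1213 before. Ass1 (0.88), Cth (0.96), Gdf15 (0.73) and Serpinf1 (0.65) were past the limit on this scale, Ccl2 (0.58) lay just under it and Ccl7 at 0.56. The ATF4 list kept a median of 0.20, glycolysis 0.27, the actin core 0.17 and the proteasome 0.14, while cytosolic ribosomal proteins, themselves short, came to 0.06. The 19 measured genes of cyclic nucleotide signalling, 14 of them lower before (73.7%, against 13.8% of all genes), went from a median of -0.88 to -0.28 with 6 lower (2.13% of all genes were lower on this scale). The 27 receptor and guidance genes, 16 lower before (59.3%), went from -0.76 to -0.23 with 3 lower, Ror1, Robo2 and Fat4. The lists were chosen with earlier results of these data known, so these shares describe their members and test nothing. The cyclic nucleotide and the receptor and guidance genes were long, with median spans of 132970 and 198652 bases. The 12 nuclear RNAs, 7 lower before, went from -0.76 to -0.39 with 2 lower, Malat1 (-1.21) and Neat1 (-0.74).

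Regulators of the adipocyte lineage were among the genes that moved with span. Of 18 measured genes of adipocyte commitment 8 were lower (44.4%, against 13.8% of all genes). Of 14 regulators that the study links to bAPC 1 and bCAPs 6 were lower (42.9%), and all 14 were below 0 (63.8% of all genes were). The 14 regulators had a median span of 114386 bases. Centred within span deciles, their median went from -0.58 to -0.12 with 1 lower, where 2.13% of all genes were lower. Ebf2, an early factor of brown preadipocytes, was at 86.2 CPM against 107 to 321 CPM in the other clusters (ratio -1.11, -1.20 to -1.02). Nfia (-1.07), Zfp521 (-1.16), which restrains adipogenesis, Ebf1 (-0.80) and Zfp423 (-0.69) went the same way. Centred within span deciles, Ebf2 had -0.42, Nfia -0.38, Zfp521 -0.47, Ebf1 -0.11 and Zfp423 0.00. On this scale 2 of the 18 commitment genes, Hp and Mecom, were lower past the limit, where 2.13% of all genes were. The median of the commitment list went from -0.29 to -0.19. Plin2, which coats lipid droplets, was the commitment gene of highest ratio (0.45, 0.36 to 0.54).

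**Figure D5:**
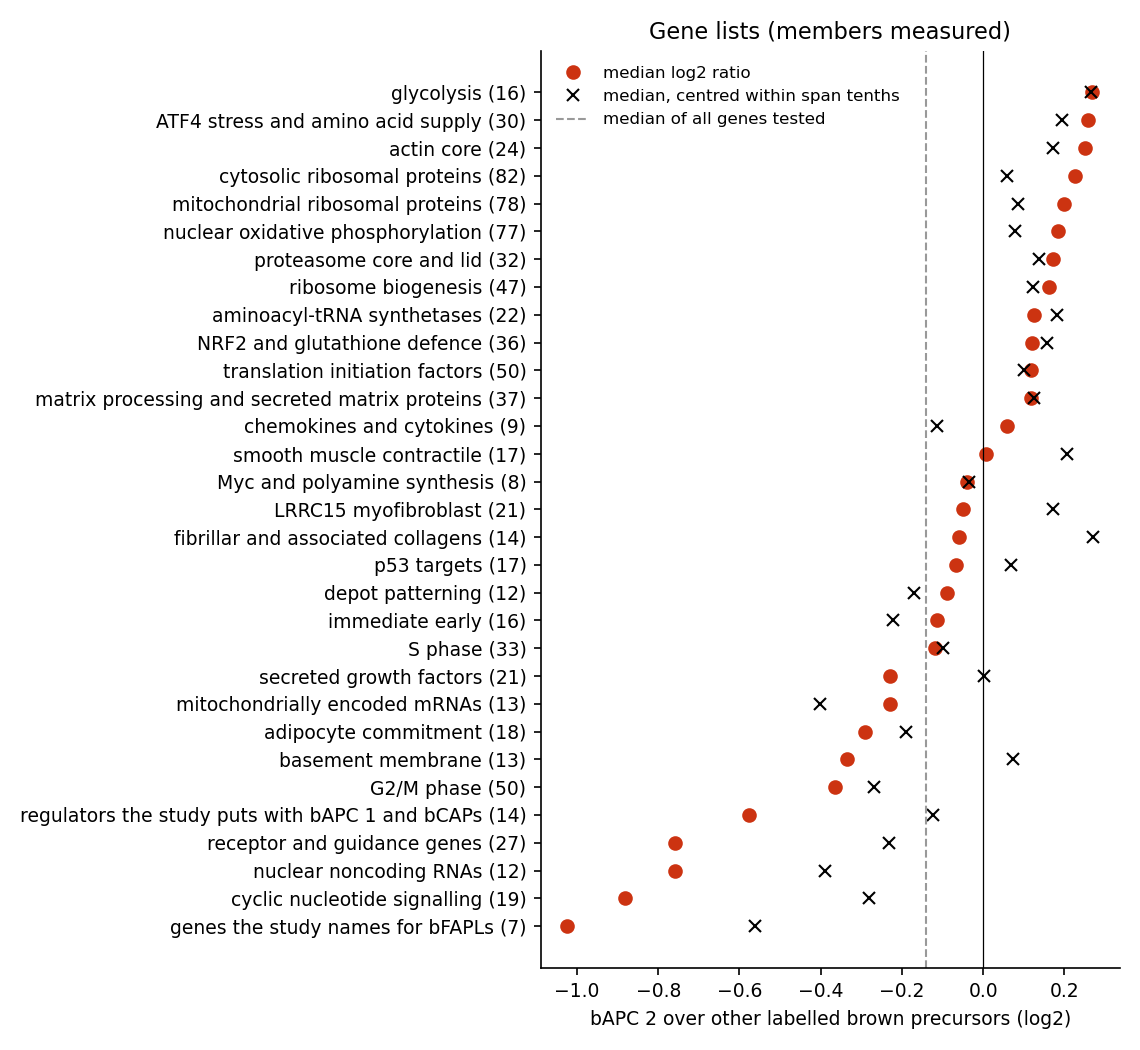
Median log2 ratio of bAPC 2 over the other labelled brown precursor cells for 31 gene lists with at least 5 members measured (number in brackets), as measured (circles) and centred within deciles of gene span (crosses). The dashed line is the median of all genes, -0.14, and the list of cyclic nucleotide signalling moves from -0.88 to -0.28 between the readings.

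The study places bAPC 2 together with bAPC 1 at the start of its trajectories and also ahead of bFAPLs, so the marker and regulator genes of bFAPLs were read against both neighbours. Of 7 measured genes that the study names for bFAPLs, on these same cells, 5 were lower in bAPC 2 than in all other cells (71.4%, against 13.8% of all genes). All 7 were below 0 (63.8% of all genes were). The median of -1.02 rested on bFAPLs themselves and was -0.27 without them. Meox2, a homeobox factor, was at 10.7 CPM in bAPC 2 (8.91 to 12.7) and 97.9 CPM in bFAPLs. Nr2f2, the orphan receptor COUP-TFII, was at 45.4 and 193 CPM, and Col4a1, a basement membrane collagen, at 197 and 1269 CPM. The ratios of bAPC 2 to bFAPLs were -3.20 (-3.48 to -2.93), -2.09 (-2.23 to -1.95) and -2.69 (-2.76 to -2.62). Against bAPC 1 the same genes had -0.54 (-0.86 to -0.24), -0.02 (-0.18 to 0.14) and -0.20 (-0.27 to -0.12), so that bAPC 2 held none of these named genes above bAPC 1. They do not stand for the whole list. Its 7 measured genes had a median of -0.20 against bAPC 1. All 10 genes of the list summed to 522 CPM in bAPC 2 and to 534 CPM in bAPC 1. The study assigned its regulators by the activity of their target genes, whereas the values here are the mRNA of the factor itself. Of the 4 measured regulators that it puts with both clusters, Meox2 and Nr2f2 were lower (50.0%, against 13.8% of all genes). Above 0 was 1 of them (36.2% of all genes were). This was Creb3, a membrane-bound factor of the secretory pathway, at 43.6 CPM in bAPC 2, 45.0 in bFAPLs and 32.9 in bAPC 1. The median of the 4 regulators was -0.05 against bAPC 1 alone and -1.18 against bFAPLs alone. The mural genes Rgs5 and Myh11 were at 5.62 and 8.68 CPM against 76.8 and 48.4 CPM in bFAPLs. Acta2, smooth muscle actin, was shared with bFAPLs (5685 and 5500 CPM) and bAPC 4 (5732 CPM) and lower in bAPC 1 (3295 CPM). Over all genes, bAPC 2 had 63 genes (0.717%) higher and 1530 (17.4%) lower than bAPC 1, and 206 (2.34%) higher and 1003 (11.4%) lower than bFAPLs.

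By whole profile, across 8820 genes, bAPC 2 was nearest to bAPC 3 (Spearman 0.961), bAPC 1 (0.955) and bFAPLs (0.952) and farthest among brown clusters from bAPC 5 and bCAPs (both 0.944). The median absolute log2 ratio gave another order, with bFAPLs nearest (0.237) and bAPC 4 (0.292) and bAPC 1 (0.288) farthest. The order therefore depended on the measure, and genes are not independent replicates.

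The white library had no part in the brown clustering. Its nearest cluster by correlation was wAPC 1 (0.943), then wAPC 3 (0.938). By the median absolute log2 ratio the order was reversed, with 0.300 for wAPC 3 and 0.308 for wAPC 1. The 40 highest and 40 lowest genes of bAPC 2 at 50 CPM or more were read in each white cluster against the other labelled white cells. In wAPC 1 the 40 high genes had a median of 0.18 and the 40 low genes -0.55, where all genes had -0.04. Of the high genes 6 were at least 1.5-fold higher there (1.56% of all genes) and of the low genes 19 at least 1.5-fold lower (4.22% of all). In wAPC 3, the white cluster with most G2/M cells, 0 of the high genes (0.781% of all) and 19 of the low genes (5.54% of all) were past the limit, and the medians were 0.05 and -0.57. In wAPC 4 the low genes had a median of -0.53, while the high genes were at 0.02 against 0.00 for all genes, with 23 of 40 above it. With 20 or 80 genes each way, 2 white clusters rather than these 3 had both shifts. The other 4 clusters had high genes below the median of all genes, down to -0.54 in differentiating wFAPLs. The white clusters differed in their slope with gene span. Between the end deciles the median went from 0.07 to -0.31 in wAPC 3, from -0.01 to -0.22 in wAPC 1 and from -0.13 to -0.57 in differentiating wFAPLs (15 cells). It went the other way in wCAPs (-0.04 to 0.19) and wAPC 2 (-0.09 to 0.15), and hardly moved in wAPC 4 (-0.04 to -0.05). Malat1 was at 4423 CPM in wAPC 3 and at 7081 CPM or more in the others. Ccl2 and Ccl7 were higher in wAPC 1 than in the other white cells, with ratios of 0.85 and 0.60, and lower in wAPC 3, with -1.54 and -0.55. The genes low in bAPC 2 were thus below the median of all genes in 4 of 7 white clusters, differentiating wFAPLs included (-1.24), and in 1 of these 4, wAPC 1, both chemokines were past the limit as higher.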

How the data were processed

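Counts of UMIs per gene and cell were deposited by the authors for 1 brown and 1 white library, as made with Cell Ranger 7.0.1 on mm10, per the submitters' processing notes, without normalization and, by the methods of the study, with default parameters. The authors' cluster names came from their source data. The limits of the study (over 3900 and under 7700 genes, 1.7 to 5% mitochondrial UMIs, 6000 to 60000 UMIs) left 6137 of 7009 brown and 4407 of 5261 white barcodes, the brown number differing slightly from that given by the study. No doublets were called.

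UMIs were summed over the 415 cells of bAPC 2 (12092899 UMIs) and over the other 1584 labelled brown cells (45687803 UMIs), scaled to CPM and compared as log2 ratios at 10 CPM or more over both, with exact conditional binomial, Poisson and Clopper-Pearson intervals at 95%. UMIs mark molecules, and the intervals cover counting error only. With 1 library per depot no test was run, and a gene was counted as higher or lower past 1.5-fold. Named genes were the 15 highest and 15 lowest at 50 CPM or more, list members, and Lrrc15, Pdgfra, Pdgfrb, Dlk1, Pparg and Fabp4. The members and lists were chosen with earlier results of these data known. Spans came from GENCODE vM21 (GRCm38), by gene ID. Phases were called in scanpy 1.11.5 with the lists of Seurat 5.3.0. Sums used Python 3.11.15, numpy 2.4.6 and scipy 1.17.1, and sklearn 1.9.0 carried labels to unlabelled cells from their 15 nearest labelled neighbours, as an alternative. The procedures were tested on simulated data.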

Additional observations from a re-analysis of the deposited data

How the results depend on the processing

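The labels, settings and comparison cells were varied one at a time. The 1213 genes at least 1.5-fold lower in bAPC 2 stayed within 1.5 times that count (931 to 1636) with G1, male or female cells only, thinned cells, carried-over labels, equal weights, other comparison cells, cell means or without mitochondrial and ribosomal protein genes. These were not always the same genes. Male cells shared 840 of the 1213 (69.2%, and 51.3% of their own 1636), thinned cells 950 (78.3%) and G1 cells 1078 (88.9%). The count became 668 when centred on the median of all genes, 483 at 50 CPM, 7537 at 1 UMI, 186 at 2-fold and 187 centred within span deciles, an alternative chosen after seeing the data. The 17 higher genes, few and near the limit, became 27 in G1 cells, 146 in male cells (41 of bAPC 2), 44 when thinned, 71 centred, 28 without mitochondrial and ribosomal protein genes, 5 at 50 CPM, 1824 at 1 UMI, 0 at 2-fold and 75 within span deciles. These did not always hold the same genes either. Of the 17, all were shared when centred, 14 in G1 cells, 12 when thinned and 11 without bFAPLs. Carried-over labels shared 9, and male cells and span deciles 8 each. The ratio of Lrrc15 was 0.18 without bFAPLs and within its counting interval otherwise.

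The median of the longest decile was -0.67 in male cells, -0.64 thinned, -0.67 with carried-over labels, -0.65 with equal weights, -0.72 without bAPC 3, -0.71 without bFAPLs, -0.55 centred, -0.63 without mitochondrial and ribosomal protein genes, -0.65 by cell means and -0.72 at 50 CPM. That of the shortest decile was 0.14 in male cells, 0.31 centred, 0.23 without mitochondrial and ribosomal protein genes and -0.18 at 1 UMI, where genes with few UMIs enter. Carried-over labels put 23.6% of brown precursors in bAPC 2, where 90.8% of bAPC 2 cells got their label back when held out and 79.0% of cells given bAPC 2 carried it. The UMI share of nuclear noncoding RNAs was 0.549% thinned and 0.548% in G1 cells. Of the list medians recomputed under these settings, 393 stayed within the 95% interval of the median as reported and 36 did not. The sign changed in 31 of 429, in 11 of 31 lists, whose reported medians lay between -0.34 and 0.06. The chemokine list went to -0.55 in male cells and the S phase list to 0.04. The cause of these shifts was not tested. No paired analysis was possible because each group had 1 library.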
